A study of Mus musculus with 10 samples.

Results

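The genes described here are 35 genes of the endoplasmic reticulum (ER) protein folding machinery and of the unfolded protein response, followed in CD36-positive and CD36-negative cells of the mouse retina. They were taken by name, as the rows of the deposited gene table whose symbol equals 1 of the 35 listed symbols. The rule used no measured value, but the list was drawn up with earlier results of these data known. All 35 were found among the 21869 genes of the table, and 33 of them were among the 11596 genes with enough reads to be tested. By role, 16 are ER chaperones and folding enzymes, 6 belong to ER-associated degradation, 4 are the stress sensors and XBP1, and 9 belong to the ATF4 pathway.

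RNA had been sequenced from 10 samples of live retinal cells sorted as CD11b-positive with intermediate CD45, which the labels call microglia (the resident macrophages of the retina). A further sort on CD36, a scavenger receptor for lipids, gave the CD36-positive cells of libraries 1, 2, 3, 4 and 7 (n = 5) and, for comparison, the CD36-negative cells of libraries 1, 2, 4, 7 and 8 (n = 5), all labelled WT. The labels' protocol describes an intravenous injection of 20 mg/kg sodium iodate (NaIO3), or of phosphate-buffered saline, with eyes taken after 7 days, but does not say which of these the 10 sorted samples had received, so no treatment was compared. Strain, age, and whether the libraries of a group came from separate animals are not given in the sources used here, so p-values measure the spread between these samples, which may be technical.

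Proteins that enter the ER are folded by chaperones such as BiP and by disulfide isomerases, and those that fail are pulled back to the cytosol and degraded. When unfolded proteins build up, the sensors IRE1, ATF6 and PERK start the unfolded protein response: IRE1 splices the Xbp1 message, and spliced XBP1 and cleaved ATF6 switch on chaperone and degradation genes. PERK phosphorylates the translation factor eIF2α, which slows translation and favours synthesis of ATF4, a factor for amino acid, redox and stress genes that other eIF2α kinases can reach as well. In macrophages the same sensors are known to respond to lipid load as well as to secretory demand.

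The letters that these factors read can be searched in the promoters. RefSeq promoter sequences (build GRCm38.p6, 250 bases before to 50 bases after the annotated start) were found for 31 of the 35 genes; Ero1l was matched under its newer symbol Ero1a, and Manf, Hyou1, Derl1 and Atf6 had no entry. The ER stress response element ERSE is read by ATF6 and XBP1 and was searched as the box CCAAT followed, after a gap of 9 bases of any kind, by the box CCACG. ERSE-II has the same boxes with the first turned to the other strand, as ATTGG, and a gap of 1 base, so the elements share letters. TGACGTG is the core of the unfolded protein response element, TGATGNAA the element read by ATF4 with its partners (CARE), and TGACGTCA the cAMP response element (CRE), which shares its first 6 letters with TGACGTG. Every motif was searched on both strands. The promoters printed here are the 250 bases before the start of Hspa5 and Hsp90b1, the chaperones with the best known elements, of Herpud1, where elements of both arms lie together, and of Ppp1r15a and Atf3, both of the ATF4 pathway. They are given 5′ to 3′ on the gene's strand, with the matched letters in capitals.
Hspa5, chr2:34771840-34772089, plus strand: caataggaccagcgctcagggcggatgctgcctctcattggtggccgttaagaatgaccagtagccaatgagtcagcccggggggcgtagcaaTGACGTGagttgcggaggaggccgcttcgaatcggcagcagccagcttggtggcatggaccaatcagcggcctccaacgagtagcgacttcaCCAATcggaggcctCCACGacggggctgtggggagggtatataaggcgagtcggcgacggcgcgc
Hsp90b1, chr10:86705445-86705694, minus strand: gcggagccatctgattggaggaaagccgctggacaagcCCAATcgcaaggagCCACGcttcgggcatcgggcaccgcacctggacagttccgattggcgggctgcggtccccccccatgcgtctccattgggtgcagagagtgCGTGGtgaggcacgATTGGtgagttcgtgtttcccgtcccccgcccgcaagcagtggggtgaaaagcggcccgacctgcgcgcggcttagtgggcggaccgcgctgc
Herpud1, chr8:94386179-94386428, plus strand: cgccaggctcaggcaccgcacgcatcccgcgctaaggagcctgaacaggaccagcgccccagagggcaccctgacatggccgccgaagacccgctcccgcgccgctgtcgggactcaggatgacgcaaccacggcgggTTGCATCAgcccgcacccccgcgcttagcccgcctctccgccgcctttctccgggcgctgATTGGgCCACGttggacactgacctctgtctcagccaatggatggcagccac
Ppp1r15a, chr7:45526269-45526518, minus strand: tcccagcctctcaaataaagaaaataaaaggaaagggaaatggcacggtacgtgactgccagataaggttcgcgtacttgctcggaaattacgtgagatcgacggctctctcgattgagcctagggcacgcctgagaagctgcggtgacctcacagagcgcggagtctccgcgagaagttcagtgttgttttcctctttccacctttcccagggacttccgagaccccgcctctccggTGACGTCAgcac
Atf3, chr1:191183334-191183583, minus strand: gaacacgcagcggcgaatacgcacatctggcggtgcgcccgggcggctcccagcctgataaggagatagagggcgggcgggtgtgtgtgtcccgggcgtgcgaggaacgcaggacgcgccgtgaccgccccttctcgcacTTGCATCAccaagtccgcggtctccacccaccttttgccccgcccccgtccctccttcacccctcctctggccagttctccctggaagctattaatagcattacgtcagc

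In the Hspa5 promoter the capitals mark a TGACGTG beginning 157 bases before the start and an ERSE beginning 65 bases before it. Hsp90b1 had 2 ERSE matches, 1 on each strand, beginning 212 and 107 bases before the start. In the Herpud1 promoter a CARE, read on the other strand as TTGCATCA, begins 112 bases and an ERSE-II 52 bases before the start. The Ppp1r15a match is a CRE beginning 12 bases before the start, and the Atf3 match is a CARE beginning 110 bases before it.

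The elements fell by role. The lists hold genes of the pathways whose factors read these elements, so the shares describe the lists and test nothing. An ERSE lay in 7 of 14 chaperone promoters (50%: Hspa5, Hsp90b1, Calr, Canx, Pdia6, Dnajc3 and Creld2), in that of Syvn1 among 5 degradation genes, and in 0 of 9 ATF4 pathway promoters, against 39 of all 32851 promoters in the table (0.119%). The 9 ERSE matches began between 44 and 212 bases before the start. ERSE-II was in the promoters of Dnajb11 and Herpud1, against 12 promoters of all (0.0365%). A CARE lay in 4 of 9 ATF4 pathway promoters (44.4%: Atf3, Trib3, Asns and Chac1), in 0 of 14 chaperone promoters and in that of Herpud1, against 3.97% of all promoters. TGACGTG was in 2.01% of all promoters and TGACGTCA in 1.79%, and among the 31 genes only in Hspa5 and Ppp1r15a. A match describes these letters and not binding, and no match says only that the letters are not in this window.

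**Figure D1:**
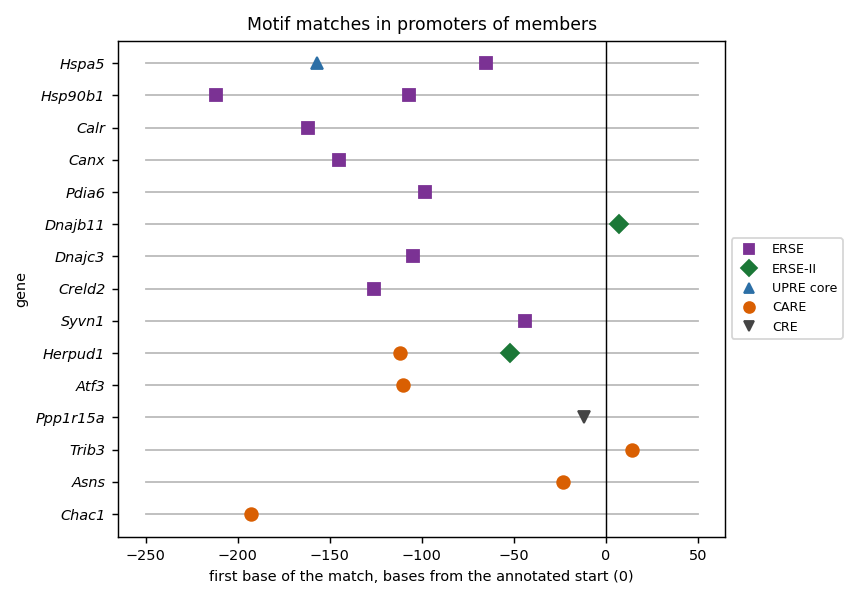
Position of each motif match in the promoters of the 15 genes with a match, in bases from the annotated start at 0; the grey line is the window searched, and symbols mark the motif. ERSE matches lie in chaperone promoters and that of Syvn1, between 44 and 212 bases before the start, while CARE matches lie in 4 ATF4 pathway promoters and that of Herpud1.

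Total counts ran from 5001664 to 13250961 per CD36-positive library and from 9361254 to 12138461 per CD36-negative library, and 13508 to 15059 genes had a count in each library. CD36-positive libraries 1 and 3 were the shallowest. On principal component 2 of log2 CPM library 1 stood apart from all others (75.38), and on component 3 library 3 did (-76.95). Levels are given as CPM, the count scaled to a fixed number of reads with TMM-scaled library sizes. Cd36 averaged 219 CPM in CD36-positive cells, against 50.3 CPM in CD36-negative cells. Microglial markers overlapped: 0 of 12 passed in edgeR, DESeq2 or limma voom (2 at an unadjusted p under 0.05 in edgeR), and they summed to 8659.7 to 18873 CPM per CD36-positive library against 8068 to 19245 CPM per CD36-negative library. Markers of other immune cells did. Of 10 tested neutrophil markers 9 fell, with summed levels of 86.0 to 195 CPM in CD36-positive against 351 to 894 CPM in CD36-negative libraries. Without Csf3r, the most abundant of the list, which did not pass, the sums were 1.24 to 20.8 against 184 to 618 CPM, and Retnlg, Ly6g, G0s2, Ngp, Elane and Mpo were at 0 in every CD36-positive library. For T and NK cells 10 of 12 fell (3.91 to 20.2 against 200.3 to 584 CPM, Prf1 at 0 in all CD36-positive libraries), for dendritic cells 14 of 17 fell and 1 rose (821 to 1480 against 1544 to 2004 CPM), and for monocytes 13 of 18 fell and 1 rose (852 to 1235 against 1681 to 2789 CPM). Without Bst2, the most abundant dendritic marker and the 1 that rose, those sums were 241 to 475 against 1186 to 1647 CPM. Without Ccr2, the most abundant monocyte marker, they were 468 to 793 against 1247 to 2284 CPM. Photoreceptor markers fell in 2 of 14 (143 to 1156 against 460.3 to 2956 CPM), with 9 at an unadjusted p under 0.05 and all 14 log2 fold changes negative (median -1.59). Those of Müller glia and astrocytes rose in 1 and fell in 2 of 8 (10148 to 30820 against 16435 to 22267 CPM, nearly all of it Apoe, and 322 to 425 against 627 to 1058 CPM without Apoe), and those of B and plasma cells passed in 0 of 2, also at an unadjusted p and by DESeq2 and limma voom (24.9 to 36.8 against 12.4 to 36.9 CPM). The part of these cells in the results that follow was not tested, and in bulk samples fewer cells of a type and less RNA per cell cannot be told apart.

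The comparison of the sorted populations asks how the folding machinery and the ATF4 pathway differ between CD36-positive and CD36-negative cells. Of the 33 genes tested, 1 rose in CD36-positive cells, the chaperone Hsp90b1, and 1 fell, the degradation gene Herpud1; the other 31 did not pass (edgeR quasi-likelihood test, Benjamini-Hochberg adjusted p under 0.05 over all genes tested). That is 3.03% in each direction, against 2.61% of all tested genes higher (303) and 4.74% lower (550), so the share of these genes that changed was near the background. Leaving out 1 library moved the count of all genes higher to 195 (CD36-positive library 3), 132 (CD36-negative library 4), 183 (CD36-negative library 7) and 197 (CD36-negative library 8). Hsp90b1 and Herpud1 were also the only 2 of the 33 whose groups did not overlap, where 2.59% of all genes had every CD36-positive library above every CD36-negative one and 5.83% had the reverse. The median log2 fold change (CD36-positive over CD36-negative) was 0.06 over the 33 genes and 0.02 over all genes tested. For 26 of the 33 genes the 95% confidence interval lay within a 2-fold change in either direction; the exceptions were Dnajb9, Herpud1, Ern1, Ppp1r15a, Trib3, Psat1 and Sesn2.

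**Figure D2:**
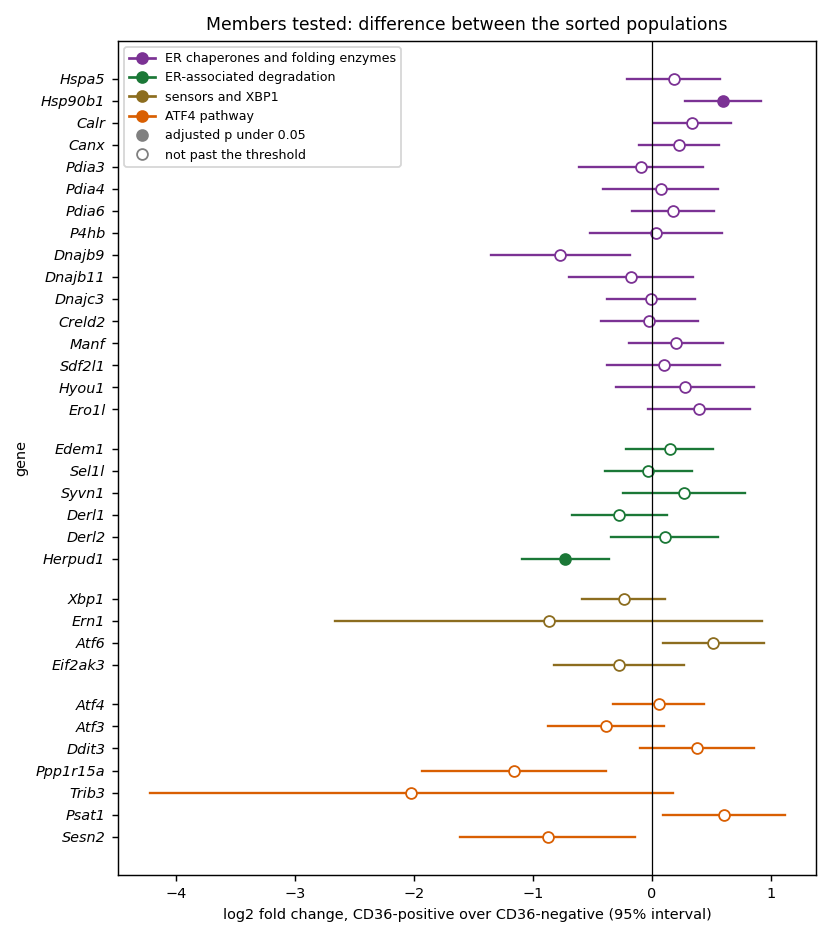
Log2 fold change of CD36-positive over CD36-negative cells for the 33 tested genes (points) with 95% confidence intervals that are not adjusted for the number of genes (lines), coloured by role. Filled points mark an adjusted p under 0.05, which Hsp90b1 (0.60) and Herpud1 (-0.73) reached; the widest intervals belong to Trib3 and Ern1, the tested genes with the fewest reads.

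Per kilobase (kb) of exon, the 8 most abundant of the 35 messages were chaperones and folding enzymes in both populations. Pdia3 averaged 412 CPM per kb in CD36-positive and 439 CPM per kb in CD36-negative cells, Hsp90b1 355 and 234, Calr 278 and 219, and Hspa5 261 and 230.1. The degradation gene Herpud1 (64.5 and 107 CPM per kb) and Xbp1 (84.9 and 100.1) came after these 8 and, in both populations, above Atf4 (62.9 and 60.5). The sensors were low, with Atf6 at 12.01 and 8.39, Eif2ak3 at 3.718 and 4.496, and Ern1 at 0.247 and 0.457 CPM per kb. Trib3, Asns and Chac1 were at the bottom beside Ern1, with at most 1.21 CPM per kb in either population. Hsp90b1 stood above Hspa5 and Calr in CD36-positive cells, whereas in CD36-negative cells the mean levels per kb of Hsp90b1, Hspa5 and Calr lay between 219 and 234.

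Among the ER chaperones and folding enzymes, 16 of 16 were tested, Hsp90b1 rose and 15 did not pass. At an unadjusted edgeR p under 0.05 there were 3, Hsp90b1 and Calr with positive and Dnajb9 with negative fold change. The share of all genes at an unadjusted p under 0.05 was not counted, for this or any other list. DESeq2 and limma voom each called 1 higher, Hsp90b1, and 0 lower. Of all 11596 genes tested, DESeq2 called 533 higher and 743 lower, and limma voom 325 higher and 607 lower. Of the 16 log2 fold changes 11 were positive and 5 negative, with a median of 0.14. Hsp90b1 encodes GRP94, the HSP90 protein of the ER lumen, which folds integrins and Toll-like receptors. Its level was 1599, 1464, 1404, 1208 and 1483 CPM in CD36-positive libraries 1, 2, 3, 4 and 7, against 934, 899, 941, 1028 and 920.2 CPM in CD36-negative libraries 1, 2, 4, 7 and 8. All 5 CD36-positive libraries lay above all CD36-negative ones, and the lowest of them, library 4, exceeded the highest CD36-negative library, library 7. The log2 fold change was 0.60 (SE 0.15, 95% confidence interval 0.28 to 0.92, edgeR adjusted p = 0.0216). The size held in every alternative run (0.54 to 0.65), but the call did not: the edgeR adjusted p was 0.0506 when CD36-positive library 2 was left out, and 0.0611, 0.0751 and 0.0517 when CD36-negative libraries 1, 4 and 8 were left out in turn. Exons of Hsp90b1 overlap those of Gm15344 and Gm25745 on the same strand and of 1810014B01Rik on the other, and the sources used here do not say whether counting used strand, so reads in the shared stretches cannot be told apart.

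Hspa5 encodes BiP, the HSP70 chaperone that holds the sensors inactive and the usual readout of the response. It was at 864, 1275, 806, 1080.1 and 1499 CPM in CD36-positive libraries, against 1034, 941, 986, 1049 and 856 CPM in CD36-negative libraries, in the library order given for Hsp90b1. CD36-positive libraries 2, 4 and 7 lay above every CD36-negative one, and library 3 below all of them. The log2 fold change was 0.18 (SE 0.19, 95% confidence interval -0.21 to 0.58, edgeR adjusted p = 0.627). Hspa5 and Hsp90b1 both carry ERSE matches, and Hsp90b1 alone of the pair passed; whether their fold changes differ from each other was not tested.

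The lectin chaperones, which hold newly made glycoproteins, had positive fold changes that did not pass. Calr (calreticulin) was at 697, 843, 743, 911 and 807 CPM in CD36-positive libraries, against 607, 548, 685, 621 and 699 CPM in CD36-negative libraries. CD36-positive libraries 2, 3, 4 and 7 lay above all CD36-negative ones, and library 1 lay just under CD36-negative library 8 (log2 fold change 0.34, SE 0.15, edgeR adjusted p = 0.210). Canx (calnexin), its membrane-bound relative, averaged 749.7 ± 78.9 CPM in CD36-positive libraries and 639 ± 91.7 CPM in CD36-negative ones (SD, n = 5 each; log2 fold change 0.23, edgeR adjusted p = 0.450).

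The disulfide isomerases varied more between CD36-positive libraries than between the populations. Pdia3, the isomerase that works with the lectin chaperones, was at 609, 1476, 968, 1579 and 1839 CPM in CD36-positive libraries, against 1228, 1088, 1484, 1622 and 1462 CPM in CD36-negative libraries (log2 fold change -0.09). P4hb, protein disulfide isomerase itself, was at 218, 647, 386, 608 and 797 CPM in CD36-positive libraries, against 489, 418, 575, 602 and 510.2 CPM in CD36-negative libraries (0.03). For both genes libraries 1 and 3 were the lowest of the CD36-positive group and lay below every CD36-negative library, while library 7 was the highest of all 10. Pdia4 averaged 143 ± 46.0 CPM in CD36-positive libraries and 136 ± 16.8 CPM in CD36-negative ones (log2 fold change 0.08), and Pdia6 469.7 ± 87.5 and 415 ± 20.5 CPM (0.18; SD, n = 5 each). Ero1l, the oxidase that recharges the isomerases, was at 72.0, 91.0, 66.6, 70.4 and 59.4 CPM in CD36-positive libraries, against 70.5, 61.3, 46.6, 55.9 and 38.6 CPM in CD36-negative libraries (log2 fold change 0.40, edgeR adjusted p = 0.283).

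**Figure D3:**
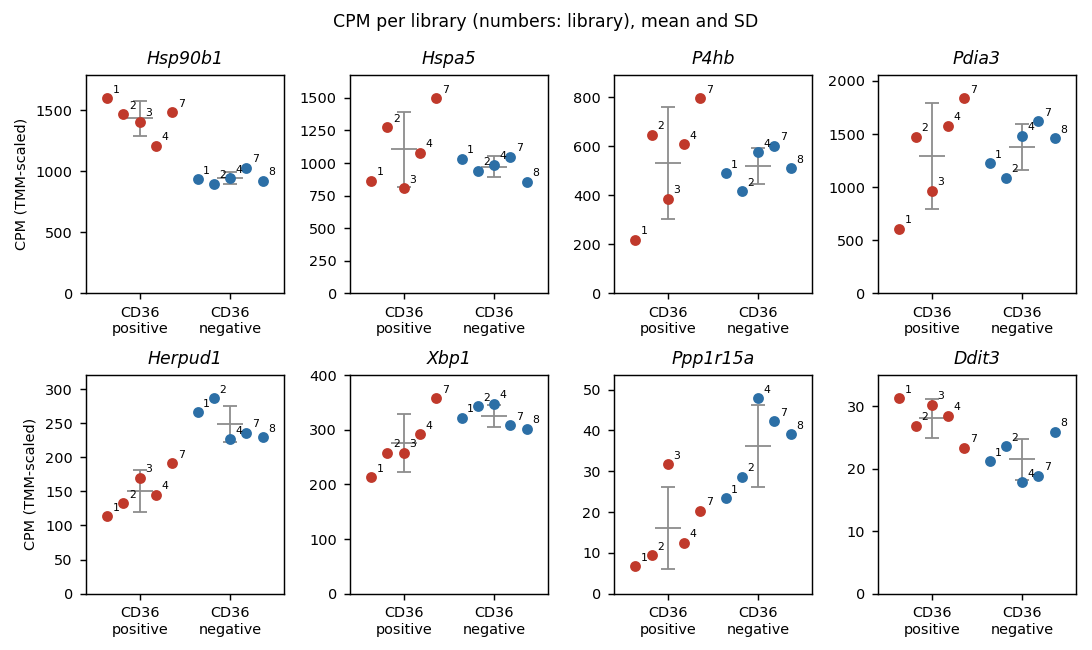
CPM of 8 genes in each library (points, numbered by library), CD36-positive left and CD36-negative right in each panel, with the group mean and SD in grey (n = 5 each); axes start at 0. The groups are apart for Hsp90b1 and Herpud1, whereas for P4hb and Pdia3 the CD36-positive libraries span more than the CD36-negative ones, with libraries 1 and 3 lowest.

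The co-chaperones that recruit or recycle BiP did not pass. Dnajb9 (ERdj4), which in mammals restrains IRE1 through BiP, had the lowest fold change of the chaperone group, with 43.4, 29.7, 35.5, 22.4 and 53.0 CPM in CD36-positive libraries, against 57.8, 38.4, 55.4, 103 and 59.3 CPM in CD36-negative libraries. CD36-positive libraries 2, 3 and 4 lay below every CD36-negative one, and CD36-negative library 7 was the highest (log2 fold change -0.77, SE 0.28, 95% interval from -1.35 to -0.19, edgeR adjusted p = 0.107). Dnajb11 (ERdj3), which delivers substrates to BiP and carries an ERSE-II match, averaged 175 ± 71.5 CPM in CD36-positive libraries and 198 ± 14.4 CPM in CD36-negative ones (log2 fold change -0.17). Its partner Sdf2l1 averaged 182 ± 56.9 and 169.5 ± 31.3 CPM (0.10), and Dnajc3 (P58IPK), also a BiP co-chaperone, 171 ± 34.1 and 172 ± 21.4 CPM (-0.01). Hyou1 (GRP170), the nucleotide exchange factor of BiP, averaged 21.1 ± 4.98 CPM in CD36-positive libraries and 17.5 ± 3.76 CPM in CD36-negative ones (0.28). Manf, an ER protein that binds BiP and can be secreted, averaged 178 ± 43.3 and 155 ± 16.2 CPM (0.20), and Creld2, an ER protein induced by stress, 105 ± 23.2 and 107 ± 13.7 CPM (-0.02; SD, n = 5 each).

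Within the CD36-positive group the chaperones differed in how far the libraries spread. The ratio of the highest to the lowest CD36-positive library was 3.65 for P4hb, 3.02 for Pdia3, 2.92 for Dnajb11, 2.78 for Pdia4 and 2.45 for Sdf2l1, but 1.32 for Hsp90b1, 1.31 for Calr and 1.29 for Canx. The median ratio over the 16 chaperones was 1.87 in CD36-positive and 1.39 in CD36-negative libraries. Over the 8805 tested genes with a mean of 10 CPM or more it was 2.15 and 1.70, in both groups above the chaperones' median. CD36-positive library 1 was the lowest of its group for 11 of the 16 chaperones, where it was the lowest for 31.2% of those 8805 genes; without it the chaperones' median ratio was 1.47, against 1.76 for the 8805 genes. CD36-positive library 7 was the highest of its group for 8 chaperones, and CD36-negative library 7 the highest of its group for 9. The share of all genes highest in either library 7 was not counted. With CD36-positive libraries 1 and 3 left out, the median log2 fold change of the chaperones was 0.34, that of Hspa5 0.39, of P4hb 0.39 and of Pdia3 0.24, none of these genes passing, while Hsp90b1 was at 0.54 (edgeR adjusted p = 0.0391). The median was 0.25 without library 1 alone and 0.04 without library 2 or library 7. Libraries 1 and 3 were also the shallowest, and the part of depth in these values was not tested.

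**Figure D4:**
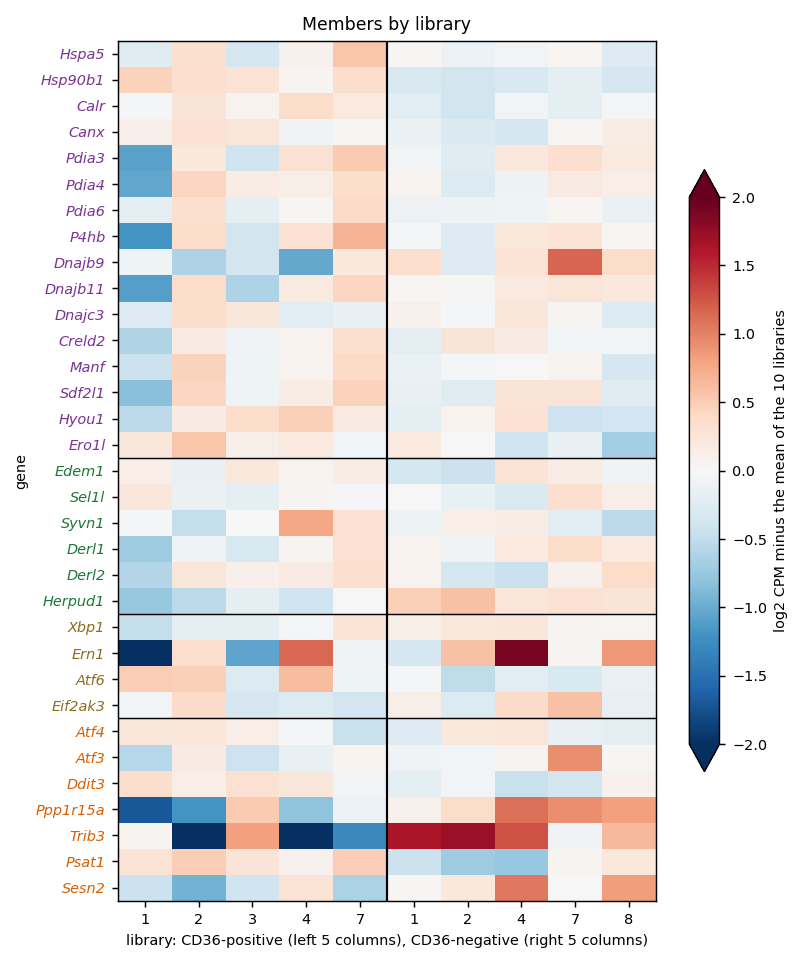
Deviation of log2 CPM from the gene's mean over the 10 libraries for the 33 tested genes (rows, label colours by role: chaperones, degradation, sensors and XBP1, ATF4 pathway from the top), with CD36-positive libraries left of the line and CD36-negative right. The colour scale ends at -2 and 2. CD36-positive library 1 is low across most disulfide isomerases and Dnajb11, Hsp90b1 is above its mean in all CD36-positive libraries, and Herpud1 is under its mean in all of them.

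In ER-associated degradation 6 of 6 genes were tested, Herpud1 fell and 5 did not pass (median log2 fold change 0.04). Herpud1 encodes a ubiquitin-like membrane protein of the HRD1 complex and is itself a target of the unfolded protein response. It was at 114, 132, 169.9, 145 and 191 CPM in CD36-positive libraries, against 266, 286, 227, 236 and 229 CPM in CD36-negative libraries. Every CD36-positive library lay below every CD36-negative one. The log2 fold change was -0.73 (SE 0.18, 95% confidence interval -1.10 to -0.36, edgeR adjusted p = 0.0163), and it passed in 19 of 19 alternative fits, at -0.87 to -0.64. No exon of Herpud1 overlaps another annotated gene.

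The other degradation genes had fold changes between -0.27 and 0.27. Edem1, which hands misfolded glycoproteins to degradation, averaged 268 ± 24.9 CPM in CD36-positive libraries and 241 ± 50.6 CPM in CD36-negative ones (log2 fold change 0.15). The HRD1 ubiquitin ligase Syvn1 averaged 43.9 ± 14.6 and 36.5 ± 6.85 CPM (0.27), and its adaptor Sel1l 126 ± 14.8 and 129 ± 22.0 CPM (-0.03). The derlins, membrane proteins of the retrotranslocation channel, averaged 221 ± 56.6 and 267 ± 29.3 CPM for Derl1 (-0.27) and 99.6 ± 21.8 and 92.4 ± 21.0 CPM for Derl2 (0.11; SD, n = 5 each). Syvn1, Sel1l and Herpud1, whose products sit in 1 complex, had fold changes of different sign, of which that of Herpud1 passed.

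Neither the 3 sensors nor Xbp1 passed in edgeR, DESeq2 or limma voom (4 of 4 tested, 1 at an unadjusted edgeR p under 0.05, median log2 fold change -0.26). Atf6, the sensor that is cleaved into a transcription factor, was at 128, 126, 75.7, 139 and 85.6 CPM in CD36-positive libraries, against 88.6, 63.8, 77.9, 73.5 and 83.4 CPM in CD36-negative libraries. Libraries 1, 2 and 4 of the CD36-positive group lay above all CD36-negative ones, and libraries 3 and 7 among them (log2 fold change 0.52, SE 0.20, 95% confidence interval 0.09 to 0.94, edgeR adjusted p = 0.142). Xbp1 was at 213, 258, 258, 292 and 358 CPM in CD36-positive libraries, against 323, 344, 348, 308 and 302 CPM in CD36-negative libraries. CD36-positive libraries 1, 2, 3 and 4 lay below all CD36-negative ones and library 7 above them (log2 fold change -0.24, edgeR adjusted p = 0.451). Counts per gene do not separate the spliced from the unspliced Xbp1 message, so IRE1 activity cannot be read from them. Eif2ak3, which encodes PERK, averaged 22.4 ± 5.45 CPM in CD36-positive libraries and 27.1 ± 6.82 CPM in CD36-negative ones (log2 fold change -0.27; SD, n = 5 each). Ern1, which encodes IRE1α, had 0, 23, 6, 42 and 24 reads in CD36-positive libraries, against 18, 31, 79, 20 and 46 reads in CD36-negative libraries, too few for a narrow interval (log2 fold change -0.87, 95% confidence interval -2.66 to 0.93).

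Of the 9 ATF4 pathway genes 7 were tested and 0 passed in edgeR, with 3 at an unadjusted p under 0.05. DESeq2 and limma voom each called 1 lower, Ppp1r15a, where they called 743 and 607 of all 11596 genes lower. Positive log2 fold changes numbered 3 and negative ones 4, with a median of -0.39. Atf4 itself was at 168, 169, 158, 141 and 106 CPM in CD36-positive libraries, against 119.9, 166, 171, 129 and 127 CPM in CD36-negative libraries. CD36-positive library 7 lay below every CD36-negative library and the other CD36-positive libraries among them (log2 fold change 0.06, SE 0.18, 95% confidence interval -0.33 to 0.44); ATF4 is set largely by translation, which RNA counts do not show. Ddit3, which encodes the stress factor CHOP, was at 31.3, 26.9, 30.2, 28.5 and 23.4 CPM in CD36-positive libraries, against 21.2, 23.6, 17.8, 18.9 and 25.9 CPM in CD36-negative libraries. CD36-positive libraries 1, 2, 3 and 4 lay above all CD36-negative ones (log2 fold change 0.38, SE 0.23, edgeR adjusted p = 0.356). Exons of Ddit3 overlap those of Mars and Gm4189 on the other strand, so reads in the shared stretches cannot be told apart. Atf3, an early stress-induced repressor, was at 52.7, 88.1, 58.9, 71.3 and 83.0 CPM in CD36-positive libraries, against 75.3, 76.1, 81.4, 150.3 and 80.1 CPM in CD36-negative libraries (-0.39, edgeR adjusted p = 0.360). Without CD36-negative library 7, the highest, its log2 fold change was -0.15.

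Ppp1r15a encodes GADD34, the phosphatase subunit that removes the phosphate from eIF2α and so ends the block of translation. It was at 6.70, 9.48, 31.7, 12.5 and 20.3 CPM in CD36-positive libraries, against 23.3, 28.6, 47.9, 42.2 and 39.0 CPM in CD36-negative libraries. CD36-positive libraries 1, 2, 4 and 7 lay below all CD36-negative ones, while library 3 lay among them. The log2 fold change was -1.16 (SE 0.37, 95% confidence interval -1.94 to -0.39, edgeR adjusted p = 0.0662). It did not pass here, and passed in 8 of 19 alternative fits (-1.59 to -0.97; edgeR adjusted p = 0.0108 without CD36-positive library 3). Exons of Ppp1r15a overlap those of Tulp2 on the other strand.

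Among the amino acid and metabolic genes of the pathway none of those tested passed. Psat1, an enzyme of serine synthesis, was at 37.0, 43.4, 36.7, 32.5 and 43.3 CPM in CD36-positive libraries, against 22.7, 18.5, 18.1, 31.8 and 35.5 CPM in CD36-negative libraries (log2 fold change 0.61, SE 0.24, edgeR adjusted p = 0.152). Sesn2, an inhibitor of mTORC1 signalling, was at 9.30, 6.43, 9.46, 15.2 and 8.004 CPM in CD36-positive libraries, against 12.8, 14.6, 26.4, 12.5 and 22.6 CPM in CD36-negative libraries (-0.88, SE 0.35, edgeR adjusted p = 0.151). In 4 of 5 CD36-positive libraries, all but library 4, Psat1 lay above and Sesn2 below every CD36-negative library. Trib3, a pseudokinase that dampens the pathway, had 5, 0, 12, 0 and 3 reads in CD36-positive libraries, against 37, 34, 24, 8 and 18 reads in CD36-negative libraries (log2 fold change -2.02, 95% interval from -4.22 to 0.18, edgeR adjusted p = 0.283). Asns, which makes asparagine, had 0, 0, 8, 4 and 4 reads in CD36-positive libraries, against 0, 87, 9, 27 and 48 reads in CD36-negative libraries. Chac1, which degrades glutathione, had 7, 5, 21, 0 and 0 reads in CD36-positive libraries, against 2, 12, 0, 4 and 9 reads in CD36-negative libraries. Asns and Chac1 were left out by the filter on low counts, and with no filter neither passed (edgeR adjusted p = 0.171 and 0.793).

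Set side by side, the median log2 fold change was 0.14 over the 16 chaperones and -0.39 over the 7 tested ATF4 pathway genes, against 0.02 over all genes. The interval lay within a 2-fold change in either direction for 15 of 16 chaperones but for 3 of 7 ATF4 pathway genes. The ATF4 median moved to -0.74 without CD36-positive library 4, to -0.72 without CD36-negative library 1 and to -0.15 without CD36-negative library 7; with the stricter filter of 10 CPM in 5 samples, which leaves out Trib3, it was -0.17, and the chaperone median moved as given above. As a score per library, the mean deviation of log2 CPM from each gene's mean, the ATF4 genes stood at -0.25, -0.50, 0.17, -0.40 and -0.28 in CD36-positive libraries, against 0.11, 0.24, 0.36, 0.19 and 0.35 in CD36-negative libraries. CD36-positive library 3 lay among the CD36-negative ones and the other CD36-positive libraries below them. This rested in part on Trib3, the tested gene of the pathway with the fewest reads. Leaving it out was an alternative chosen after seeing the data. The score of the other 6 genes was -0.305, -0.184, 0.067, -0.065 and -0.11 in CD36-positive libraries, against -0.14, -0.003, 0.21, 0.23 and 0.30 in CD36-negative libraries. CD36-positive libraries 3, 4 and 7 then lay among the CD36-negative ones and libraries 1 and 2 below them. The median log2 fold change of the 6 genes was -0.16. The chaperone score was -0.42, 0.28, -0.07, 0.07 and 0.30 in CD36-positive libraries, against -0.05, -0.14, 0.03, 0.11 and -0.10 in CD36-negative libraries, where the groups overlapped. Chaperones minus ATF4 genes gave -0.17, 0.78, -0.24, 0.46 and 0.59 in CD36-positive libraries, against -0.16, -0.38, -0.33, -0.08 and -0.45 in CD36-negative libraries. Libraries 2, 4 and 7 of the CD36-positive group were above all CD36-negative libraries and libraries 1 and 3 among them, so the contrast between the roles was not shared by all 5. Without Trib3 this difference was -0.12, 0.46, -0.13, 0.13 and 0.42 in CD36-positive libraries, against 0.09, -0.14, -0.18, -0.13 and -0.40 in CD36-negative libraries. Summed levels overlapped for both roles, at 5816 to 8976 CPM in CD36-positive libraries and 5869.7 to 7258 CPM in CD36-negative ones for the chaperones, and 284 to 344 against 279 to 389 CPM for the ATF4 pathway.

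**Figure D5:**
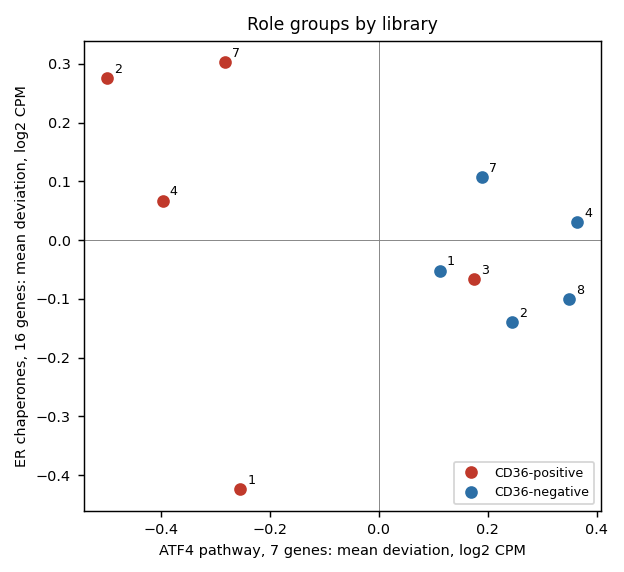
Each library by the score of the 7 tested ATF4 pathway genes (x) and of the 16 chaperones (y), both the mean deviation of log2 CPM from each gene's mean over 10 libraries; points are numbered by library. CD36-positive libraries 2, 4 and 7 are at the upper left, library 1 is low on both scores, and library 3 lies among the CD36-negative libraries.

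Fold changes can be set beside the promoter elements described above. Of the 10 genes with an ERSE or ERSE-II, all tested, 1 rose (Hsp90b1), 1 fell (Herpud1) and 8 did not pass, with a median log2 fold change of 0.18. The 6 chaperones whose promoter held neither had 0 calls and a median of 0.06. Of the 5 genes with a CARE 3 were tested, of which Herpud1 fell and Atf3 (-0.39) and Trib3 (-2.02) did not pass. Hsp90b1 and Herpud1, which moved in opposite directions, both carry elements of the ERSE kind, and Herpud1 alone of the 31 promoters holds an ERSE-II together with a CARE.

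Wider lists of the same pathways are set beside the 2.61% of all genes that were higher and the 4.74% that were lower. In ER folding and glycoprotein quality control outside the 35, 2 of 27 tested genes rose and 1 fell (median log2 fold change 0.08). Hspa13, an HSP70 relative of the microsomes, was at 42.0, 37.0, 52.0, 33.6 and 38.4 CPM in CD36-positive libraries, against 22.0, 20.8, 16.7, 18.0 and 28.8 CPM in CD36-negative libraries, without overlap (0.93, SE 0.23, edgeR adjusted p = 0.0185). Prdx4, the peroxiredoxin of the ER, averaged 169 CPM in CD36-positive libraries and 105 CPM in CD36-negative ones (0.69, edgeR adjusted p = 0.0349). Ero1lb, a second ER oxidase, was lower, at 25.1 against 50.6 CPM (-1.01, edgeR adjusted p = 0.0207), whereas its relative Ero1l did not pass. By edgeR 0 genes passed among 29 of the translocon, signal peptidase and oligosaccharyl transfer (median 0.07, 2 at an unadjusted p under 0.05), 24 others of ER-associated degradation (-0.13, 3), 27 regulators of stress signalling (-0.08, 2) and 20 cytosolic heat shock genes (0.04, 5). DESeq2 and limma voom also called 0 in these lists, except that DESeq2 called 1 heat shock gene higher and 1 lower.

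Lists that border the ATF4 pathway were read in the same way. Among ATF4 targets in metabolism and transport 2 of 32 tested genes fell and 0 rose, near the 4.74% and 2.61% of all genes. The median log2 fold change was -0.28, with 22 negative and 10 positive. At an unadjusted edgeR p under 0.05 there were 5. DESeq2 and limma voom each called 4 lower, against 743 and 607 of all 11596 genes. For 4 of the 32 every CD36-positive library lay below every CD36-negative one, where 5.83% of all genes did. Mthfd2, a mitochondrial enzyme of folate metabolism, was at 31.3, 23.5, 29.7, 34.1 and 28.3 CPM in CD36-positive libraries, against 55.2, 55.7, 39.7, 60.3 and 48.0 CPM in CD36-negative libraries (-0.82, SE 0.20, edgeR adjusted p = 0.0175). Slc1a5, a glutamine carrier, averaged 46.0 CPM in CD36-positive libraries and 89.6 CPM in CD36-negative ones (-0.96, edgeR adjusted p = 0.0216), and for both genes the groups did not overlap. Of 28 immediate early genes, which many stimuli and handling of cells induce, 12 fell, where 4.74% of all genes did, and 0 rose (median -0.56), with summed levels of 2015 to 2978 CPM in CD36-positive against 3489 to 4804 CPM in CD36-negative libraries. Btg2, an antiproliferative gene, averaged 135 against 315 CPM (-1.22, edgeR adjusted p = 0.000147), and Dusp1, a MAP kinase phosphatase, 55.3 against 190.9 CPM (-1.78, edgeR adjusted p = 0.000163). The part of the immediate early genes, and of the immune cell markers that fell with them, in the values of Ppp1r15a, Atf3, Herpud1 and Dnajb9 was not tested.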

How the data were processed

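Values in the deposited table are expected counts, unnormalized estimates of reads per gene of which 91.9% were whole. Per the submitters' processing notes, StringTie 1.3.1, HISAT2 2.1.0, Bowtie2 2.2.8 and fastp 0.18.0 were used with build mm10, with no role stated for any. The counting program is not stated in the sources used here. Of 22008 lines, 8 damaged and 131 repeated ones were dropped, leaving 21869 genes; no line of the 35 genes was damaged.

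Counts were rounded, filtered (filterByExpr, minimum count 10), TMM-scaled and fitted over all 10 libraries with edgeR 4.0.16 in R 4.3.3 (quasi-likelihood, glmQLFit and glmQLFTest). The model held the group alone, and p-values were adjusted by Benjamini-Hochberg over all genes, with a threshold of 0.05. Alternatives were DESeq2 1.42.0 size factors and Wald test, limma 3.58.1 voom with quality weights, other filters, a covariate, a replicate block, each library left out, libraries 1 and 3 left out, a threshold of 0.01 and, chosen after seeing the data, the ATF4 list without Trib3. Log2 CPM used a prior count of 2.

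Libraries are numbered as in the description label. The title label numbers some libraries differently. Libraries sharing a description number deviated together only weakly (correlations 0.029 to 0.133), as did those sharing a title number (-0.021 to 0.133). Correlations of differently numbered libraries were not computed beside these, so whether the numbers pair the libraries was not settled. The main fit used no pairing, while the replicate blocks among the alternatives did. Within groups, libraries differed by more than sampling noise.

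The genes and lists were chosen with earlier results of these data known. Named are all 35 genes, Cd36, and of each other list the 2 past the threshold with the smallest p in each direction. Lengths are exon unions of GENCODE vM21 (GRCm38). In that annotation 11 of the 35 genes have an exon overlapping another gene. These are Ddit3, Derl2, Dnajb9, Eif2ak3, Hsp90b1, Manf, Pdia3, Pdia4, Pdia6, Ppp1r15a and Syvn1, with same-strand overlaps for Hsp90b1, Manf and Pdia4. Promoters are from RefSeq (GRCm38.p6).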

Additional observations from a re-analysis of the deposited data

Results flagged for a closer look

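Atf3 in CD36-negative library 7, at 150 CPM, lay far from the rest of its group, whose values ran from 75.3 to 81.4 CPM; the gap to the nearest library was 0.919 of the group's range. It was the only value set apart in this way among 70 groups of 5 libraries examined, where chance sets apart about 1 in 20.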

How the results depend on the processing

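Of 644 fold changes of the 33 genes and Cd36 over 19 alternative fits, 630 kept their side of the threshold, 6 no longer passed (all Hsp90b1), 8 newly passed (all Ppp1r15a), and 0 called values reversed; 10 uncalled genes changed sign in some fit. Of all genes, 303 were higher and 550 lower. The count higher was 184 with the replicate block of the description numbers, 188 without CD36-positive libraries 1 and 3, 533 with the DESeq2 Wald test, 90 at an adjusted p under 0.01, and 132 to 380 with 1 library left out; the count lower was 330 at 0.01 and 422 to 576 with 1 library left out. The count of the 33 genes higher (1, Hsp90b1) was 0 with no filter (edgeR adjusted p = 0.0729), with that replicate block (0.0861) and at 0.01, and 0 to 1 with 1 library left out. The count lower (1, Herpud1) was 0 at 0.01 and 1 to 2 with 1 library left out. It was 2, with Ppp1r15a, under no filter, either replicate block, libraries 1 and 3 left out, detected genes as a covariate, the DESeq2 Wald test and limma voom. The ATF4 median ran from -0.74 to -0.15 and the chaperone median from 0.04 to 0.25 with 1 library left out; the ATF4 median was -0.17 with the filter of 10 CPM in 5 samples and -0.16 without Trib3. Low read numbers limit Trib3, Ern1, Asns and Chac1. The causes were not tested.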
